A study of Mus musculus with 4 samples.

Results

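The genes described here are those of the unfolded protein response and the integrated stress response. The 32 members were chosen by symbol: 5 sensors and transcription factors, 11 chaperones and cochaperones of the endoplasmic reticulum (ER), 4 disulfide isomerases, 6 genes of ER-associated degradation and protein translocation, and 6 targets of the transcription factor Atf4. All 32 were among the 14432 genes of the deposited count table. They were measured in bone marrow-derived macrophages (BMDMs), primary macrophages that grow from mouse marrow in the growth factor M-CSF (50 ng/mL), taken from animals 8 to 12 weeks old. The marrow came from wild-type mice, given as C57BL/6J in the sample labels, or from Trpv4-null mice, which were labelled as lacking the calcium-permeable channel TRPV4. Cells of both genotypes were either left without treatment or exposed to lipopolysaccharide (LPS, a bacterial cell wall component) at 100 ng/mL for 24 h. Each of the 4 combinations was 1 single-cell library. The design text names 3 mice for each genotype, but no mouse is given for any cell, so every library was treated as 1 sample with an unknown mixture of animals.

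Secretory and membrane proteins fold in the ER with the help of chaperones and disulfide isomerases, and proteins that fail to fold are drawn back into the cytosol and degraded. When unfolded protein builds up, the membrane sensors Ern1 (IRE1), Eif2ak3 (PERK) and Atf6 respond: Ern1 splices the Xbp1 mRNA, Atf6 is cut to release a transcription factor, and Eif2ak3 phosphorylates eIF2alpha, which slows translation in general and favours translation of Atf4. Cleaved Atf6 and spliced Xbp1 raise folding and degradation genes, while Atf4 raises genes of amino acid supply, redox balance and, under lasting stress, cell death. Kinases other than Eif2ak3 also phosphorylate eIF2alpha, so the Atf4 arm can respond without ER stress. Activated macrophages secrete large amounts of protein. Splicing of Xbp1, cleavage of Atf6 and phosphorylation cannot be read from gene counts.

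The response elements that define these arms could be seen in the promoters of the members themselves. Of the 32 members, 29 had a promoter in the RefSeq table (build GRCm38.p6, 250 bases before to 50 bases after the start site), and Atf6, Hyou1 and Manf had none. The ER stress response element (ERSE), searched on both strands as CCAAT, 9 bases of any kind and CCACG, is the element read by Atf6 and Xbp1 together with NF-Y. It was found in 8 of the 29 promoters (27.6%), against 39 of all 32851 promoters of the same length (0.119%). The element was first described in promoters of this kind, so its presence here is background to the results rather than a result. The matches are shown with 8 bases on either side, 5′ to 3′ on the gene's own strand, with the element in capitals. A match to the opposite strand reads as CGTGG before ATTGG.
Hspa5, chr2:34772017-34772051 (+): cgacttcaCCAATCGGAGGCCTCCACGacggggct
Calr, chr8:84847067-84847101 (-): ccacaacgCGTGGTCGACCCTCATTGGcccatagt
Hsp90b1, chr10:86705630-86705664 (-): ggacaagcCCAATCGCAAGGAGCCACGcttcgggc
Hsp90b1, chr10:86705525-86705559 (-): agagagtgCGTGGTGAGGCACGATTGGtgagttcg
Canx, chr11:50325792-50325826 (-): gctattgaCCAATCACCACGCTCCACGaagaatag
Pdia6, chr12:17266483-17266517 (+): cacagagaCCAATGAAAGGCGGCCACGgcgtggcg
Dnajc3, chr14:118937819-118937853 (+): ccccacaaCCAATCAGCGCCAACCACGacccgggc
Creld2, chr15:88819512-88819546 (+): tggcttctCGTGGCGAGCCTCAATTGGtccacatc
Syvn1, chr19:6046524-6046558 (+): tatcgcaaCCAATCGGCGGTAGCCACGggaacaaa

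Of these 8 genes, 6 encode chaperones, 1 a disulfide isomerase (Pdia6) and 1 a ubiquitin ligase of ER-associated degradation (Syvn1), and none was a sensor or an Atf4 target. The element nearest to a start site lay at -44 to -26 (Syvn1) and the one farthest away at -212 to -194 (the first of the pair in Hsp90b1). The amino acid response element read by Atf4 with a C/EBP partner was searched as TGATGNAA, which is a short motif and was found in 1304 of all promoters (3.97%). It was present in 4 of the 29, namely 3 of the 6 Atf4 targets and Herpud1. The letters of the element are again in capitals, and a match to the opposite strand ends in CATCA.
Asns, chr6:7693217-7693240 (-): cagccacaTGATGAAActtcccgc
Trib3, chr2:152344031-152344054 (-): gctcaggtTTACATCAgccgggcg
Chac1, chr2:119351041-119351064 (+): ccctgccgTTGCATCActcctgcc
Herpud1, chr8:94386309-94386332 (+): acggcgggTTGCATCAgcccgcac

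A cyclic AMP response element (TGACGTCA), present in 1.79% of all promoters, was found in the promoter of Ppp1r15a and of no other member. It lay at -12 to -5 from the start site. The core of the unfolded protein response element (TGACGTGG), which shares the start TGACGT with the former, was found in none of the 29 and in 0.676% of all promoters. These are matches of letters within a fixed window, not measured sites, and an element outside the window or with another spelling would not be seen.
Ppp1r15a, chr7:45526265-45526288 (-): ctctccggTGACGTCAgcacagcg

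The libraries held 5485 to 8288 cells and 43731003 to 144090985 unique molecular identifiers (UMIs, each marking 1 captured transcript). Levels are given as CPM, UMIs per 1000000 UMIs of the library, and ratios as log2 of CPM plus 1, which understates the ratio of genes near 1 CPM. With 1 library per group there is no replicate error, no test and no p-value, and the 95% intervals cover counting error only. Cells differed in depth with the treatment: a cell had on average 2.79 times as many UMIs after LPS in wild type and 1.94 times as many in the 2 libraries labelled Trpv4-null, called the pair labelled Trpv4-null below. Where 2 levels are given for a genotype the untreated one comes first, and where 2 LPS ratios are given wild type comes first. The ferritin heavy chain Fth1 alone took 3.60% to 3.94% of the UMIs in the untreated libraries and 10.7% to 11.1% after LPS. Such a shift lowers the CPM of other genes, and the median of the 7617 genes with a mean of at least 10 CPM was -0.39 after LPS in wild type and -0.42 in the pair labelled Trpv4-null. Median-of-ratios scaling centres on the genes found in every library, and it raised the LPS log2 ratios of well-detected genes by 0.53 and 0.61. The median of the 7617 genes was then 0.13 and 0.17, so a log2 ratio just above 0 there is not above the typical gene. Values on that scale are given beside many of the ratios. A well-detected gene whose LPS log2 ratio lies between 0 and -0.53 in wild type, or between 0 and -0.61 in the pair labelled Trpv4-null, turns in direction on that scale. All 8 macrophage markers stood above 20 CPM in every library. Trpv4 itself was at 5.83 CPM in untreated wild type and 2.07 after LPS, and at 8.60 and 9.62 CPM in the pair labelled Trpv4-null, so its counts do not follow the genotype label. Which exons the null allele lacks is not given in the sources used here. Of 27292 distinct cell barcodes, 74 occurred in more than 1 library.

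After LPS the response genes did not move together, and they differed both between and within roles. In wild type, 14 of the 32 members were at least 1.5-fold higher than in the untreated library and 8 at least 1.5-fold lower, and in the pair labelled Trpv4-null 13 were higher and 7 lower. In wild type 6 of 11 chaperones and 3 of 4 disulfide isomerases were at least 1.5-fold higher, and 6 and 2 in the pair labelled Trpv4-null, with Calr the furthest in both. The 3 ER stress sensors, Dnajb9, Herpud1 and Sel1l were lower. Among the Atf4 targets, Asns, Trib3, Ddit3 and Chac1 were higher, and Sesn2 and, in wild type, Ppp1r15a were lower. The size of 1.5-fold is a description, not a test. Over all 7617 genes with a mean of at least 10 CPM, 10.1% stood at least 1.5-fold higher after LPS and 37.4% at least 1.5-fold lower in wild type. These shares were 10.6% and 40.1% for the pair labelled Trpv4-null. At 2-fold, 4 members were higher and 4 lower in wild type, against 5.96% and 16.8% of all genes, and 6 and 5 in the other pair, against 6.33% and 20.2%. Of the 30 members above that mean (Trib3 and Chac1 were below it), 40.0% were higher and 26.7% lower in wild type. After median-of-ratios scaling, 24.7% of all genes were higher and 13.8% lower in wild type, against 18 and 3 of the 32 members. The corresponding shares for the pair labelled Trpv4-null were 28.3% and 14.9%, against 18 and 4 members.

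The 2 genotypes shared 13 members on the higher side and 7 on the lower side. How many of all compared genes shared a side past 1.5-fold was not counted. Pdia4 was past 1.5-fold on the higher side, and Ppp1r15a on the lower side, in wild type alone. In wild type the members nearest to 1.5-fold on the higher side were Pdia4 (0.61) and Hyou1 (0.67), just past it, and P4hb (0.44) and Hspa5 (0.41), just short of it. On the lower side they were Sel1l (-0.71) and Atf6 (-0.82), just past it, and Dnajc3 (-0.34) and Ssr1 (-0.26), just short of it. In the pair labelled Trpv4-null, Hyou1 (0.61) and Atf4 (0.76) were just past it and Hspa5 (0.56) and Hsp90b1 (0.28) just short. Several calls therefore rest on small margins, among them that of Hspa5. For 26 members the LPS log2 ratios of the genotypes lay within 0.25 of each other. The share of all compared genes that lay as close was not counted either, so this closeness is not particular to the members. The 6 further apart were Ern1, Eif2ak3, Dnajb11, Pdia4, Ppp1r15a and Sesn2. Together the members took 0.360% of UMIs in untreated wild type and 0.483% after LPS, and 0.355% and 0.482% in the pair labelled Trpv4-null.

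**Figure D1:**
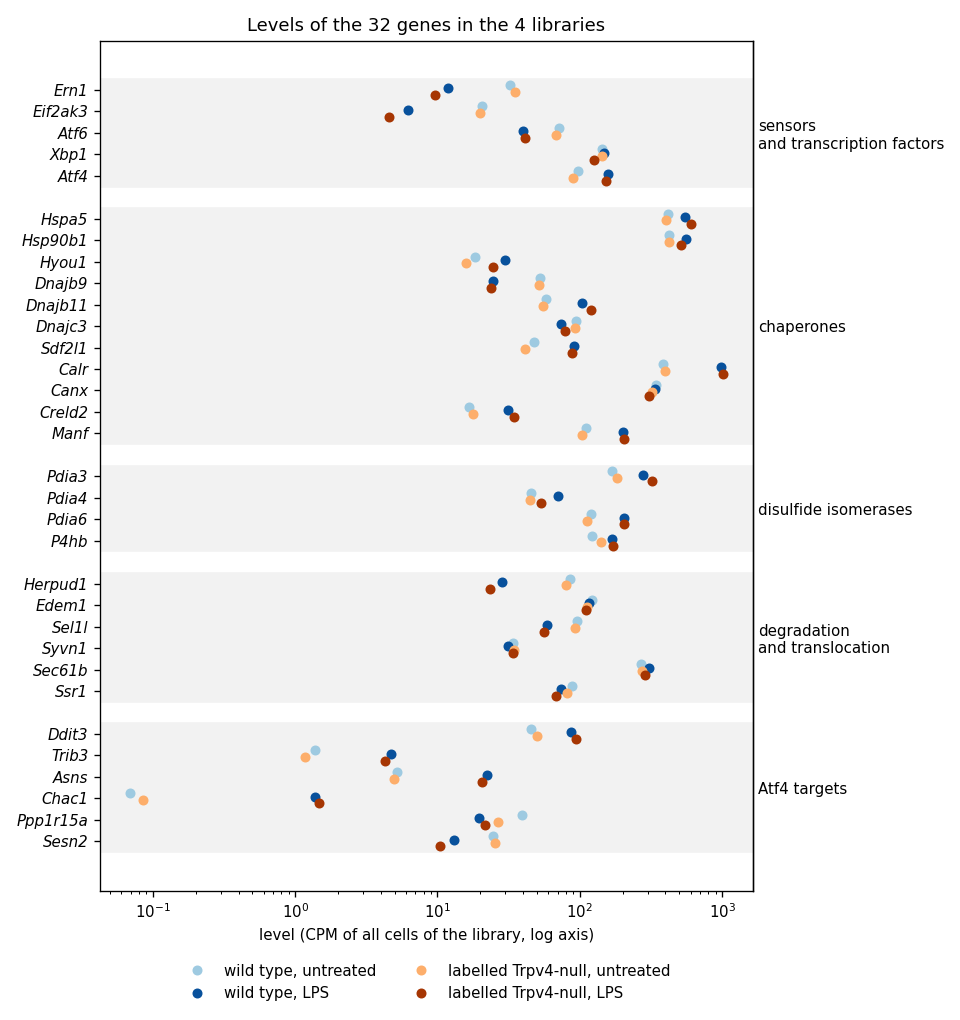
Level of each of the 32 genes (CPM of all cells of the library, log axis) in the 4 libraries, grouped by role. Calr stands between 385 and 398 CPM in the untreated libraries and at 978 and 1013 CPM after LPS, while Ern1, Eif2ak3, Atf6, Dnajb9, Herpud1 and Sel1l stand lower after LPS in both genotypes.

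The folding genes formed the largest block, and 12 of the 15 were above their untreated level after LPS in each genotype, beside 27.8% and 28.0% of all compared genes. Their summed level was 2422 CPM in untreated wild type and 3701 CPM after LPS, and 2409 and 3760 CPM in the pair labelled Trpv4-null, ratios of 1.53 and 1.56. Calr, the calcium-binding lectin chaperone calreticulin, stood at 385 CPM in untreated wild type, 978 in wild type after LPS, 398 in the untreated library labelled Trpv4-null and 1013 after LPS. Both LPS libraries were far above both untreated ones, with a ratio of 2.54 (95% interval 2.50 to 2.58) in each genotype. Its membrane-bound relative Canx (calnexin) moved apart from it, at 345 and 336 CPM in wild type and 322 and 305 CPM in the pair labelled Trpv4-null. The wild-type log2 ratio of Canx was -0.04, and it was 0.49 after median-of-ratios scaling, a turn in direction. In the pair labelled Trpv4-null it went from -0.08 to 0.53. The pair that handles the same kind of glycoprotein client therefore differed after LPS.

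Hspa5, the Hsp70 chaperone BiP that also holds the sensors inactive, was at 415 CPM in untreated wild type and 552 after LPS, and at 406 and 600 CPM in the pair labelled Trpv4-null. Its ratios were 1.33 (1.31 to 1.35) and 1.48 (1.46 to 1.5), both short of 1.5-fold. Hsp90b1, the ER member of the Hsp90 family, was at 423 and 559 CPM in wild type and 426 and 518 CPM in the pair labelled Trpv4-null. The 2 chaperones most used as signs of ER stress were thus higher after LPS by less than several of their partners. Hyou1, a large relative of Hsp70 that exchanges the nucleotide of Hspa5, rested on low levels of 18.4 and 29.8 CPM in wild type and 15.8 and 24.7 CPM in the pair labelled Trpv4-null, ratios of 1.62 (1.5 to 1.75) and 1.56 (1.44 to 1.69).

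The J-domain cochaperones of Hspa5 went in different directions. Dnajb11 (ERdj3), which binds unfolded clients, was at 58.3 and 103 CPM in wild type and 55.3 and 119 CPM in the pair labelled Trpv4-null. Dnajb9 (ERdj4), which holds Ern1 inactive through Hspa5, was at 52.9 and 24.4 CPM in wild type and 51.3 and 23.7 CPM in the pair labelled Trpv4-null. So Dnajb11 was 1.77-fold (1.70 to 1.85) and 2.16-fold (2.07 to 2.25) higher, while the LPS level of Dnajb9 was 0.461 and 0.462 of the untreated one. Dnajc3 (p58IPK), known as an inhibitor of eIF2alpha kinases, was at 93.4 and 73.6 CPM in wild type and 91.8 and 79.1 CPM in the pair labelled Trpv4-null. Its log2 ratios of -0.34 and -0.21 became 0.19 and 0.39 after median-of-ratios scaling, so its direction depends on the scaling, whereas that of Dnajb9 stayed below 0 (-0.57 and -0.49).

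Sdf2l1, a partner of Dnajb11, was at 47.4 and 90.8 CPM in wild type and 40.9 and 88.4 CPM in the pair labelled Trpv4-null. Manf, a secreted ER stress protein that stabilises Hspa5 with its clients, was at 111 and 201 CPM in wild type and 104 and 206 CPM in the pair labelled Trpv4-null. Creld2, an ER protein induced by ER stress, was at 16.7 and 31.5 CPM in wild type and 17.7 and 34.4 CPM in the pair labelled Trpv4-null. For these 3 genes the LPS libraries stood 1.82 to 2.16 times as high as the untreated ones.

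All 4 disulfide isomerases were higher after LPS, by different amounts. Pdia3, which works with Calr and Canx on glycoproteins, was at 168 and 279 CPM in wild type and 182 and 320 CPM in the pair labelled Trpv4-null. Pdia6, which can also damp Ern1 signalling, was at 120 and 205 CPM in wild type and 112 and 204 CPM in the pair labelled Trpv4-null. Both were 1.67 to 1.81 times as high after LPS. P4hb, the isomerase that is also a subunit of collagen prolyl hydroxylase, was at 123 and 167 CPM in wild type and 140 and 170 CPM in the pair labelled Trpv4-null. Pdia4 (ERp72) was at 45.7 and 70.0 CPM in wild type and 44.9 and 53.5 CPM in the pair labelled Trpv4-null. Pdia4 was the isomerase whose LPS ratio differed most between the genotypes, at 1.53 (1.46 to 1.61) against 1.19 (1.13 to 1.25), intervals that do not overlap for counting error.

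The sensors stood opposite to the folding genes. Ern1 was at 32.2 CPM in untreated wild type and 11.9 after LPS, and at 35.0 and 9.59 CPM in the pair labelled Trpv4-null. Eif2ak3 was at 20.4 and 6.22 CPM in wild type and 19.8 and 4.56 CPM in the pair labelled Trpv4-null. After LPS, Ern1 was at 0.370 (0.345 to 0.397) and 0.274 (0.253 to 0.296) of its untreated level, and Eif2ak3 at 0.305 (0.278 to 0.335) and 0.230 (0.206 to 0.257). The lower shares stayed below 0 after median-of-ratios scaling, at -0.86 and -1.19 for Ern1 and -1.08 and -1.36 for Eif2ak3 on the log2 scale. Counted per cell instead of per UMI, Ern1 gave 20.03 and 20.7 UMIs per 100 wild-type cells and 29.99 and 15.9 UMIs per 100 cells labelled Trpv4-null. The wild-type count per cell was therefore nearly the same before and after LPS, in cells with 2.79 times as many UMIs. Some other genes with a lower share gave more UMIs per 100 wild-type cells after LPS. These were 44.7 and 69.8 for Atf6, 59.9 and 102 for Sel1l, and 32.9 and 42.4 for Dnajb9. Eif2ak3 (12.69 and 10.81) and Herpud1 (53.1 and 49.2) gave fewer. Per 100 cells labelled Trpv4-null, Eif2ak3 (16.97 and 7.57), Herpud1 (68.9 and 38.9) and Dnajb9 (43.99 and 39.4) gave fewer after LPS. Atf6 (58.5 and 68.5) and Sel1l (79.2 and 93.5) gave more there.

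Atf6 was at 71.8 and 40.1 CPM in wild type and 68.3 and 41.3 CPM in the pair labelled Trpv4-null. The LPS log2 ratios were -0.82 and -0.71, against medians of -0.39 and -0.42 over all genes, and they shrank to -0.30 and -0.11 after median-of-ratios scaling. Xbp1, the transcription factor activated by Ern1, was at 144 and 147 CPM in wild type and 144 and 125 CPM in the pair labelled Trpv4-null. Its ratio was thus 1.02 (0.993 to 1.05) in wild type and 0.873 (0.848 to 0.899) in the other pair, and the latter turned to a log2 ratio of 0.41 after median-of-ratios scaling. Atf4 was at 96.9 and 159 CPM in wild type and 90.1 and 153 CPM in the pair labelled Trpv4-null, ratios of 1.64 (1.58 to 1.69) and 1.70 (1.64 to 1.75). Of the 5 sensors and transcription factors, Atf4 was the one past 1.5-fold on the higher side. Its control is mainly at translation, which these counts do not measure.

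Among the degradation and translocation genes none was at least 1.5-fold higher, and 2 of 6 were at least 1.5-fold lower, in both genotypes. A count of 2 in 6 is near the shares over all compared genes on the lower side (37.4% and 40.1%). After median-of-ratios scaling, 4 of the 6 stood above their untreated level in each genotype, beside 4438 and 4573 of the 7617 compared genes. Herpud1, a scaffold of the degradation complex, was at 85.3 and 28.3 CPM in wild type and 80.4 and 23.4 CPM in the pair labelled Trpv4-null. Sel1l, the adaptor of the ubiquitin ligase Syvn1, was at 96.3 and 58.4 CPM in wild type and 92.4 and 56.3 CPM in the pair labelled Trpv4-null. Herpud1 after LPS was at 0.332 (0.317 to 0.347) and 0.291 (0.276 to 0.306) of its untreated level and kept its direction after median-of-ratios scaling (-1.04 and -1.15), while the log2 ratios of Sel1l shrank from -0.71 in each genotype to -0.19 and -0.10. Syvn1 itself (HRD1) was at 33.8 and 31.3 CPM in wild type and 34.4 and 34.0 CPM in the pair labelled Trpv4-null. Edem1, a lectin that directs misfolded glycoproteins to degradation, was at 121 and 116 CPM in wild type and 113 and 110 CPM in the pair labelled Trpv4-null. After LPS, Syvn1 and Edem1 were at 0.925 to 0.989 of the untreated level, and both turned to a higher level after median-of-ratios scaling.

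The genes of protein entry into the ER differed little from their untreated levels. Sec61b, a subunit of the translocation channel, was at 269 and 309 CPM in wild type and 274 and 286 CPM in the pair labelled Trpv4-null. Ssr1, a subunit of the translocon-associated complex, was at 88.6 and 73.8 CPM in wild type and 81.6 and 68.2 CPM in the pair labelled Trpv4-null. The log2 ratio of Ssr1 was -0.26 in both genotypes and turned to 0.27 and 0.35 after median-of-ratios scaling.

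The 6 Atf4 targets divided into 4 that were higher and 2 that were lower after LPS. Asns, which makes asparagine, was at 5.19 and 22.4 CPM in wild type and 4.98 and 20.5 CPM in the pair labelled Trpv4-null. Ddit3 (CHOP), a transcription factor linked to cell death under lasting ER stress, was at 45.2 and 87.3 CPM in wild type and 49.8 and 93.7 CPM in the pair labelled Trpv4-null. Asns was 4.31-fold (3.77 to 4.95) and 4.12-fold (3.60 to 4.73) higher, and Ddit3 1.93-fold (1.84 to 2.03) and 1.88-fold (1.80 to 1.97). Trib3, a pseudokinase that binds and restrains Atf4 and Ddit3, was at 1.37 and 4.69 CPM in wild type and 1.17 and 4.26 CPM in the pair labelled Trpv4-null. Chac1, which breaks down glutathione, gave 3 UMIs in untreated wild type, 199 after LPS, 4 in the untreated library labelled Trpv4-null and 161 after LPS. Nearly no transcript of Chac1 was thus found without LPS, and its ratios of 20.1 (6.79 to 98.4) and 17.4 (6.65 to 64.5) have wide counting intervals.

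The other 2 targets were lower after LPS, one of them in wild type alone by 1.5-fold. Ppp1r15a (GADD34), which brings a phosphatase to eIF2alpha and so restores translation, was at 39.4 and 19.6 CPM in wild type and 26.7 and 21.6 CPM in the pair labelled Trpv4-null. Sesn2, which restrains the growth kinase mTORC1, was at 24.6 and 13.0 CPM in wild type and 25.4 and 10.5 CPM in the pair labelled Trpv4-null. The untreated wild-type library was the one that stood apart for Ppp1r15a, and the ratio was 0.496 (0.467 to 0.527) in wild type and 0.808 (0.754 to 0.866) in the pair labelled Trpv4-null. The latter turned from -0.29 to 0.29 on the log2 scale after median-of-ratios scaling, whereas Sesn2 stayed lower in both genotypes (-0.37 and -0.63). The 9 immediate-early genes listed as markers of cell handling summed to 1869 CPM in untreated wild type, 895 after LPS, 1083 in the untreated library labelled Trpv4-null and 1042 after LPS, so untreated wild type was highest here too. Among the 9, Ier3 went the other way, at 152 and 175 CPM in wild type and 204 and 196 CPM in the pair labelled Trpv4-null. The part of the 9 genes in the values of Ppp1r15a was not tested.

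**Figure D2:**
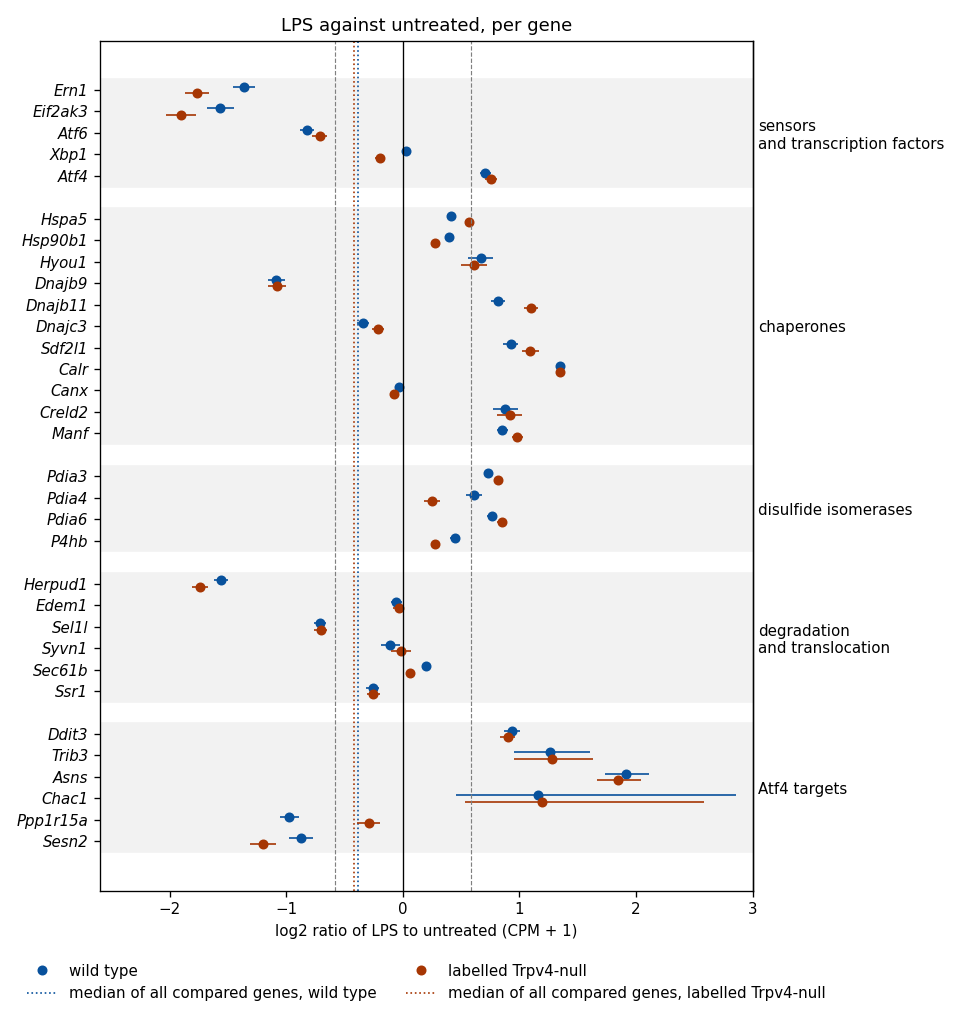
Log2 ratio of the LPS library to the untreated library (CPM + 1) for each gene, for either genotype label; bars are exact 95% intervals for counting error, carried to this scale with the untreated level held, dashed lines mark 1.5-fold and dotted lines the median of all 7617 compared genes. Of the 15 folding genes 12 lie to the right, as do 4 of the 6 Atf4 targets. The other folding genes (Dnajb9, Dnajc3 and, only slightly, Canx) lie to the left. So do the 3 sensors, Herpud1, Sel1l, Sesn2 and Ppp1r15a.

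Other genes of the same pathways were counted in the same way. Of 43 other ER genes in the table, 1 was at least 1.5-fold higher after LPS in each genotype, and 6 in wild type and 7 in the pair labelled Trpv4-null were lower. In both directions these counts are below the shares over all compared genes, 10.1% and 37.4% in wild type and 10.6% and 40.1% in the other pair. Their median log2 ratios were -0.11 and -0.10, between those of all compared genes (-0.39 and -0.42) and those of the 15 folding members (0.67 and 0.61). After median-of-ratios scaling, 36 and 35 of the 43 stood above their untreated level, beside 4438 and 4573 of the 7617 compared genes. The medians of the 43 were then 0.37 and 0.49, beside 0.13 and 0.17 over all compared genes. The gene past 1.5-fold was Serp1, a small translocon protein known to be induced by ER stress, with log2 ratios of 1.0 in both genotypes. The oxidase Ero1l, which re-oxidises disulfide isomerases, was at 0.56 and 0.46, and the cyclophilin Ppib at 0.35 and 0.44. The retrotranslocation factor Derl3, a target of Xbp1, was at -0.86 and -1.12, the channel subunit Sec61a1 at -0.32 and -0.41, and the reductase Dnajc10 at -0.41 and -0.68. Derl1 was at -0.06 and 0.01 and Derl2 at 0.31 and 0.41, and the isomerases Txndc5 and Pdia5 were at -0.23 and 0.01 in wild type and -0.23 and 0.30 in the other pair. After median-of-ratios scaling, Sec61a1 (0.21 and 0.20) and Txndc5 (0.29 and 0.36) turned to the higher side in both genotypes, and Dnajc10 did so in wild type (0.11), where it was at -0.09 in the other pair.

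Of 33 other stress response genes, 14 were higher by 1.5-fold or more in wild type and 6 were lower, with 12 and 7 in the pair labelled Trpv4-null and medians of 0.23 and 0.37. The shares over all compared genes were 10.1% higher and 37.4% lower in wild type, and 10.6% and 40.1% in the other pair. These shares are for genes with a mean of at least 10 CPM, which 21 of the 33 had. Mthfd2, a mitochondrial enzyme of folate metabolism and a target of Atf4, was at 7.27 CPM in untreated wild type, 96.6 after LPS, 7.68 in the untreated library labelled Trpv4-null and 92.0 after LPS. Slc7a11, the cystine importer, had log2 ratios of 1.59 and 2.0, and its partner chain Slc3a2 0.12 and 0.55. Cebpb, a transcription factor of the inflammatory response that also partners Atf4, was at 1.12 and 1.23, whereas Cebpg, another partner, was at -1.21 and -1.38. The transcription factor Atf5 was at 0.64 and 0.37, and the serine synthesis gene Psat1 at -0.32 and -0.29. After median-of-ratios scaling Psat1 turned to 0.11 and 0.22.

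Between the genotype labels the 32 members differed little. No member was 1.5-fold apart between the untreated libraries, where 1.16% of all compared genes were past 1.5-fold on the higher side and 0.788% on the lower side for the Trpv4-null label. None was 1.5-fold apart after LPS, where these shares were 0.683% and 0.341%. The median log2 ratio of the members was -0.04 in the untreated libraries and -0.05 after LPS, compared with -0.02 and -0.06 over all genes. At these shares fewer than 1 member in either direction would be past 1.5-fold if members were like other genes, so the count of 0 is near the background. The ratio of the summed folding levels was 0.995 without LPS and 1.02 after it.

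The largest difference between the untreated libraries was that of Ppp1r15a, with a log2 ratio of -0.54 and a ratio of 0.677 (0.629 to 0.729), close to 1.5-fold. With the 8 clusters weighted equally it was past 1.5-fold, the only member in either direction under that setting. Next came Sdf2l1 and Hyou1 at -0.21 each and P4hb at 0.19. After LPS the members furthest below wild type were Pdia4 and Eif2ak3 at -0.38 each, Ern1 at -0.29, Sesn2 at -0.28, Hyou1 and Herpud1 at -0.26 each and Xbp1 at -0.23. Those furthest above it were Dnajb11 at 0.21 and Pdia3 at 0.20. Counting intervals of all of these left out a ratio of 1, but with no second library per group the spread between cultures or mice is not known.

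**Figure D3:**
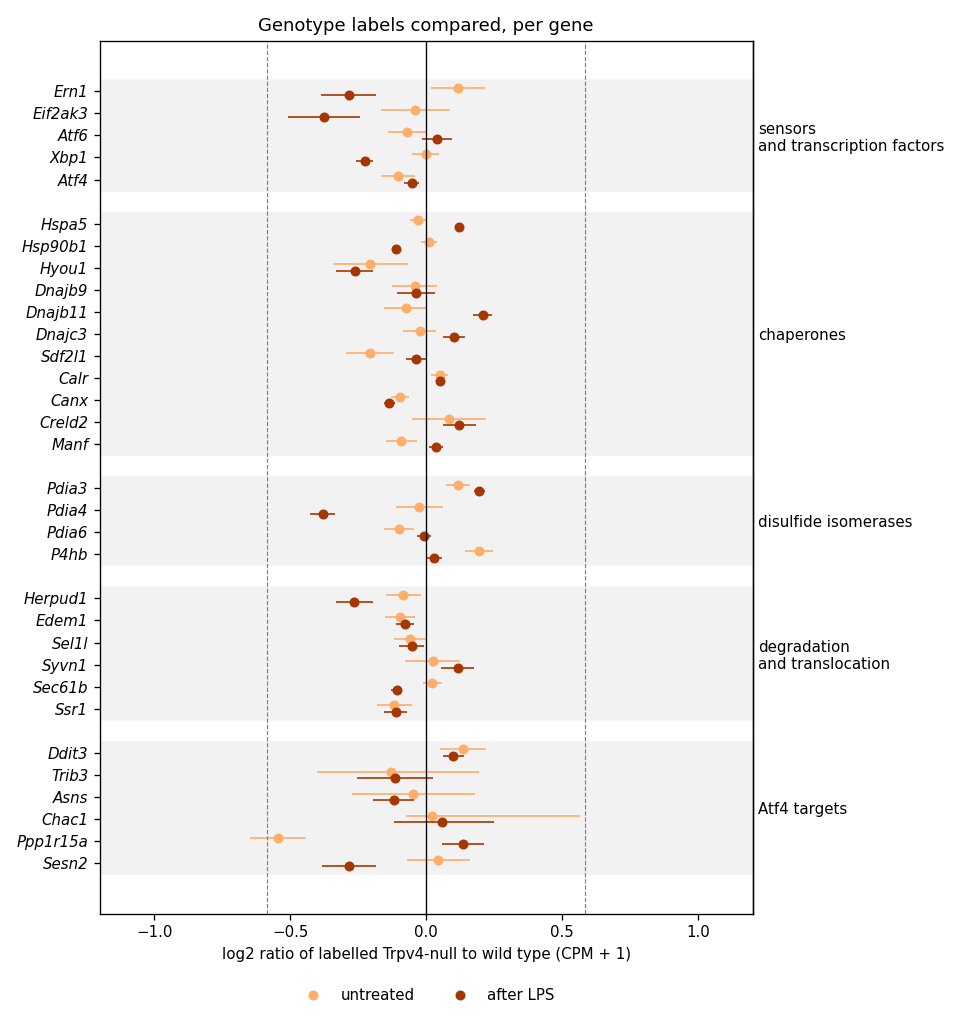
Log2 ratio of the library labelled Trpv4-null to the wild-type library (CPM + 1) for each gene, untreated and after LPS; bars are exact 95% intervals for counting error, carried to this scale with the wild-type level held, and dashed lines mark 1.5-fold. All points lie between the dashed lines, the nearest being Ppp1r15a in the untreated libraries at -0.54.

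The authors' annotation divides the cells into 9 named clusters, of which 8 had at least 100 cells in every library. In wild type 15 of the 32 members were higher after LPS in all 8 clusters and 10 lower in all 8, beside 15.1% and 52.4% of all compared genes. In the pair labelled Trpv4-null 10 members were higher and 9 lower in all 8, beside 15.9% and 54% of all compared genes. Sharing a side in all 8 clusters was thus common among all genes. Calr had log2 ratios of 0.98 to 1.56 across the wild-type clusters and 0.91 to 1.51 across the clusters labelled Trpv4-null. Herpud1 ranged from -2.29 to -1.04 and from -2.65 to -1.35, Ern1 from -1.69 to -1.12 and from -2.08 to -1.47, and Eif2ak3 from -1.82 to -1.32 and from -2.13 to -1.39. Asns ranged from 1.39 to 2.05 and from 1.58 to 3.37, the widest values resting on few UMIs.

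Without LPS, the summed folding level was highest in the Ifit1bl1+_Cmpk2+ cluster, named for interferon-induced genes, (2822 CPM) and the Cd74+ cluster (2766 CPM) in wild type, with overlapping counting intervals. In the untreated library labelled Trpv4-null the same pair led, with Cd74+ at 2945 CPM and Ifit1bl1+_Cmpk2+ at 2807 CPM. After LPS the Tmem176+ cluster led with 4358 CPM (wild type) and 4870 CPM (labelled Trpv4-null), above Cd74+ at 4065 and 4269 CPM, with intervals that did not overlap. The Proliferating cluster was lowest in 3 libraries, from 2187 to 3139 CPM, and was second lowest in the LPS library labelled Trpv4-null (3244 CPM), where Ifit1bl1+_Cmpk2+ was lowest at 3215 CPM. The Ifit1bl1+_Cmpk2+ cluster thus moved from the top of the order to the bottom part of it after LPS.

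In the Ifit1bl1+_Cmpk2+ cluster, Hspa5 did not stand higher after LPS: it was at 617 CPM in untreated wild type and 540 after LPS, and at 617 and 559 CPM in the pair labelled Trpv4-null. The log2 ratios of -0.19 and -0.14 there were the only ones below 0 for Hspa5 among the 8 clusters of either genotype, whose other values reached 0.56 and 0.71. Manf in that cluster was at 169 and 179 CPM in wild type and 135 and 155 CPM in the pair labelled Trpv4-null. Calr, in contrast, was higher there as in every other cluster, at 430 and 958 CPM in wild type and 474 and 893 CPM in the pair labelled Trpv4-null. Herpud1 was lowest there after LPS, at 15.4 and 10.6 CPM. This cluster held 177 and 179 cells in the untreated libraries and 865 and 720 after LPS, so its untreated values came from few cells.

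The Tmem176+ cluster had the highest level of Sdf2l1 after LPS, from 69.4 to 159 CPM in wild type and from 54.6 to 178 CPM in the pair labelled Trpv4-null. Its Pdia6 level went from 146 to 289 CPM and from 145 to 327 CPM, and Manf from 155 to 273 CPM and from 145 to 332 CPM. In the library labelled Trpv4-null after LPS, this cluster held the highest level of 8 of the 11 chaperones, and in wild type after LPS of 5 of the 11. Counting intervals overlapped those of the next cluster for Creld2 and Dnajc3 in the former library, and for Dnajb11 and Manf in the latter. How many of all compared genes were highest in this cluster was not counted.

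The Atf4 targets had another order of clusters. Their summed level after LPS was highest in the High_Lpl_Fabp4+ cluster, with 175 CPM (wild type) and 186 CPM (labelled Trpv4-null), followed by Ifit1bl1+_Cmpk2+ at 166 and 174 CPM, with overlapping intervals. Ddit3 after LPS was highest in those 2 clusters. In the wild-type LPS library it was at 109 CPM in High_Lpl_Fabp4+ and 116 CPM in Ifit1bl1+_Cmpk2+. In the LPS library labelled Trpv4-null it was at 122 and 125 CPM in the same clusters. Its lowest level was in Proliferating, at 60.3 CPM in the wild-type LPS library and 74.2 CPM in the LPS library labelled Trpv4-null. Atf4 itself was highest in Proliferating in 3 libraries, at 133 CPM in untreated wild type and 125 and 181 CPM in the untreated and LPS libraries labelled Trpv4-null. In untreated wild type the Il1b+_Cxcl2+ cluster led the Atf4 targets at 139 CPM, above the next cluster (118 CPM) without overlap of the intervals. That cluster also had the highest Ppp1r15a level of that library, 53.6 CPM, and the highest sum of the 9 handling markers, 2538 CPM, beside 1536 CPM in the same cluster of the untreated library labelled Trpv4-null, where Ppp1r15a was at 30.1 CPM. Their part in this was not tested.

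Between the genotype labels, 4 members differed in the same direction in all 8 untreated clusters and 12 after LPS. Of these, 2 and 5 were higher for the Trpv4-null label, beside 7.01% and 9.98% of all compared genes, and 2 and 7 were lower, beside 10.5% and 21% of all compared genes. The untreated counts, and the count of 7 lower after LPS, were near these shares. Ppp1r15a was lower in the untreated library labelled Trpv4-null in all 8, by log2 ratios of -1.09 to -0.20. Sdf2l1 was also lower in all 8 untreated clusters, and Pdia3 and P4hb were higher. After LPS, Pdia4 was lower in the library labelled Trpv4-null in all 8, from -0.53 to -0.21, as were Ern1, Xbp1, Hyou1, Canx, Sec61b and Ssr1, while Hspa5, Dnajb11, Dnajc3, Pdia3 and Ppp1r15a were higher in all 8. Clusters of 1 library share its handling and depth, so they are not replicates of the genotype.

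**Figure D4:**
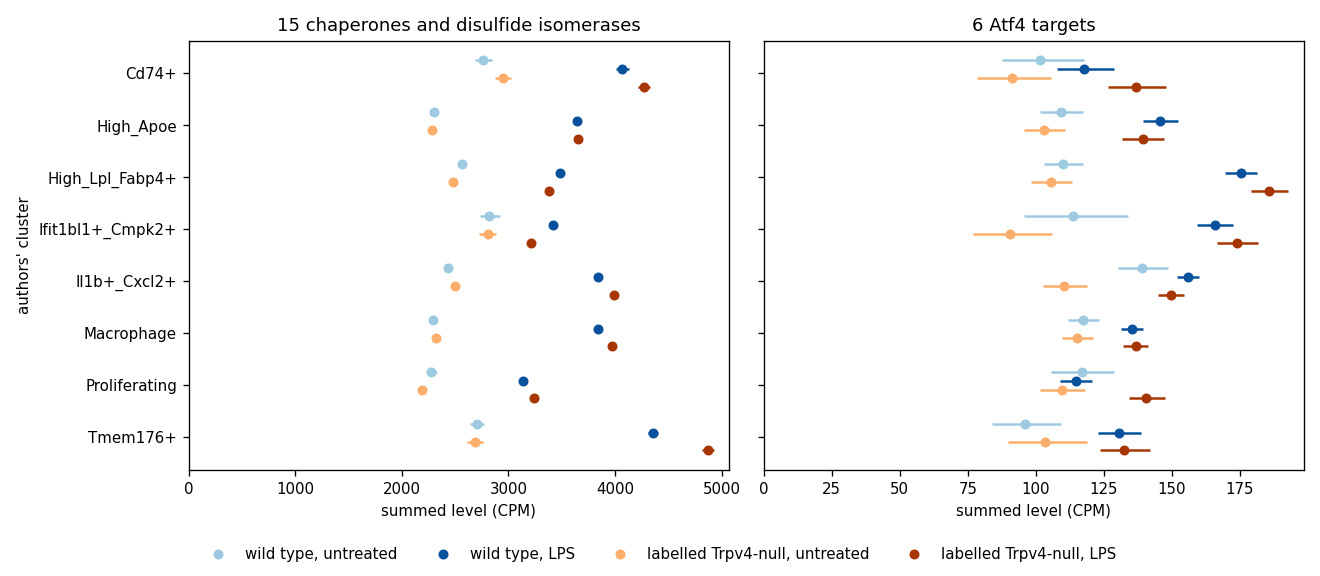
Summed level (CPM) of the 15 folding genes (left) and of the 6 Atf4 targets (right) in 8 of the authors' clusters, with 1 point for each library and exact Poisson 95% intervals as bars. The folding sum is higher after LPS in every cluster and highest in Tmem176+ (4358 and 4870 CPM), while the Atf4 targets are highest in High_Lpl_Fabp4+ after LPS (175 and 186 CPM).

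The members were set against each other over 32 points, 8 clusters in each of 4 libraries, with each library's mean over its clusters removed. Against the sum of the other folding genes, Pearson's r was 0.96 for Pdia6, 0.91 for Pdia3, 0.85 for Sdf2l1, 0.82 for Manf and 0.81 for Calr, but 0.16 for Canx and 0.31 for P4hb. Of the genes outside the folding block, Sec61b reached 0.84 and Xbp1 0.68, whereas Atf4 was at -0.48 and Trib3 at -0.58. Herpud1, also outside the block, reached 0.52, above the folding members Hsp90b1 (0.42) and Dnajb9 (0.38). Over these clusters Xbp1 thus varied with the folding sum and Atf4 against it. The Proliferating cluster was lowest for Xbp1 in all 4 libraries and lowest or second lowest for the folding sum. For Atf4 it was highest or second highest, and its part in these values was not tested. Against the sum of the Atf4 targets, Atf4 was at 0.39. Among all other named genes with a mean of at least 10 CPM, the profiles closest to the folding sum were those of Psma7 (0.86), a proteasome subunit, Guca1a (0.83), Arl6ip5 and Slc35c2 (0.81 each), Ostc (0.81), an oligosaccharyltransferase subunit, Mrpl54 (0.80), Spcs2 (0.80), a signal peptidase subunit, and Slc35b1 (0.79), an ER nucleotide transporter. Those closest to the sum of the Atf4 targets were Slc3a2 (0.78), the amino acid transporter chain named above, Ctsl (0.75), a lysosomal protease, Cln8 and Ubap1 (0.74 each), Ube2d3 and Sqstm1 (0.73 each), and Cds2 and Col4a3bp (0.71 each). The 6 targets did not vary together: against the sum of the others, r was 0.60 for Trib3, 0.45 for Ppp1r15a and 0.41 for Asns, but 0.07 for Ddit3, -0.03 for Chac1 and -0.32 for Sesn2. Ddit3 made up much of their sum, at 87.3 CPM in wild type after LPS, where Asns, the next, was at 22.4 CPM. These are descriptions, since the 32 points share 4 libraries, and clusters also differ in depth and in the cells they hold.

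The response was also spread over the cells of a library. Every cell was thinned at random to 3000 UMIs, which left out 666 shallower cells of untreated wild type, 122 of wild type after LPS, 209 of the untreated library labelled Trpv4-null and 93 after LPS. The median cell then had 7 UMIs of the 15 folding genes in both untreated libraries and 10 in both LPS libraries. The 5th percentile was 2 UMIs in the untreated and 4 in the LPS libraries, and the 95th was 15 in both untreated libraries and 20 and 21 after LPS. Both ends of the distribution were thus higher after LPS, and cells with no folding transcript made up 0.409% and 0.588% of the thinned untreated cells and 0.0857% and 0.170% after LPS.

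**Figure D5:**
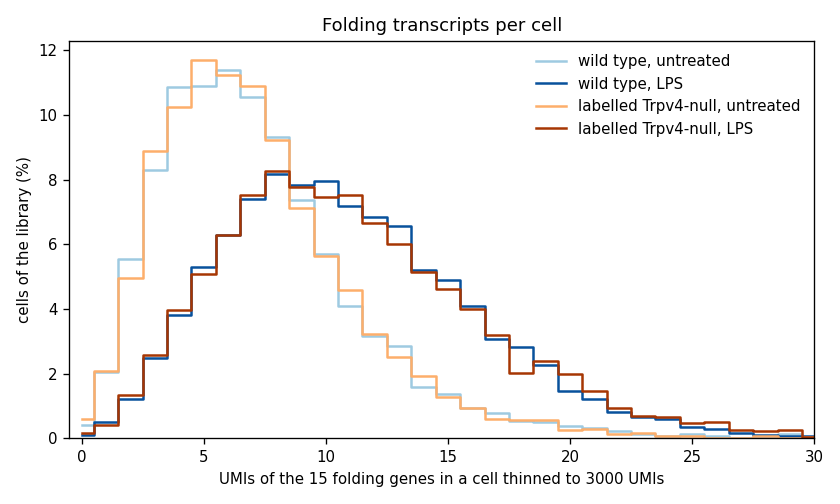
Share of cells (%) by the number of UMIs of the 15 folding genes in a cell thinned to 3000 UMIs, for the 4 libraries. The curves of the LPS libraries lie to the right of the untreated ones (medians of 10 and 7 UMIs), and the genotype labels nearly overlap in each state.

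The Atf4 targets were sparse at this depth. With wild type given first, 72.3% and 73.3% of untreated cells and 65.6% and 66.0% of LPS cells had no UMI of any of the 6. Ddit3 was found in 11.8% of thinned untreated wild-type cells and 22.4% after LPS, and in 13.6% and 22.8% of cells labelled Trpv4-null. Asns was found in 1.37% and 6.12%, and in 1.38% and 5.69%. Chac1 was in 0.0314% of thinned wild-type cells without LPS and 0.355% after it. Free RNA in the droplets can add UMIs to cells that do not express a gene, and no cell type known to lack these genes was at hand to set its level.

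By CPM, 5 of the 8 genes with an ERSE match were above their untreated level in wild type, against 27.8% of all compared genes, and 5 in the pair labelled Trpv4-null, against 28.0%. Of them Calr, Creld2 and Pdia6 were at least 1.5-fold higher, with none at least 1.5-fold lower. Of the 21 members with a promoter but no match, 12 in wild type and 11 in the pair labelled Trpv4-null were above their untreated level. Of these 21, 9 and 8 were at least 1.5-fold higher, and 7 and 6 at least 1.5-fold lower. The shares over all compared genes were 10.1% and 10.6% higher, and 37.4% and 40.1% lower. Canx, Dnajc3 and Syvn1, whose elements are printed above beside that of Calr, had log2 ratios of -0.04, -0.34 and -0.11. After median-of-ratios scaling these were 0.49, 0.19 and 0.41, and 0.53, 0.39 and 0.58 in the pair labelled Trpv4-null. On that scale all 8 thus stood above their untreated level, beside 4438 and 4573 of the 7617 compared genes. By CPM the median of the 8 was 0.41 in wild type and 0.42 in the pair labelled Trpv4-null, and that of the other 21 was 0.20 and 0.06. Of the 4 genes with the amino acid response element, Asns, Trib3 and Chac1 were at least 1.5-fold higher in both genotypes and Herpud1 at least 1.5-fold lower.

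Plasma cells, which are rich in ER and express Xbp1 strongly, and other cells of the marrow could carry such transcripts. Of 8 plasma cell markers 5 were in the table, with sums of 191 to 227 CPM that were mostly Xbp1. Jchain was at 0.0694 to 0.229 CPM, close to 0, in all 4 libraries, and Irf4 was at 3.45 and 4.26 CPM without LPS and 0.174 and 0.0459 CPM after it. Sdc1 was higher after LPS, at 20.5 and 69.5 CPM in wild type and 22.9 and 54.8 CPM in the pair labelled Trpv4-null, and Prdm1 was lower, at 31.0 and 10.9 CPM and at 31.3 and 10.4 CPM. The 3 B cell markers in the table summed to 141 and 142 CPM without LPS, nearly all of it Ighm, and to 3.83 and 2.70 CPM after it. The sum of the 4 monocyte markers went from 61.9 and 64.3 CPM to 852 and 951 CPM, nearly all of it Ms4a4c, which was at 825 and 935 CPM after LPS. Ccr2, a defining marker, was lower after LPS, at 34.1 and 6.76 CPM in wild type and 27.9 and 5.55 CPM in the pair labelled Trpv4-null, and Chil3 was at 14.2 and 3.30 CPM and at 17.9 and 1.09 CPM. Ly6c2, the remaining monocyte marker, was higher after LPS, at 2.26 and 17.1 CPM in wild type and 1.32 and 9.49 CPM in the pair labelled Trpv4-null. The 3 neutrophil markers in the table summed to 154 and 44.7 CPM in wild type and 254 and 23.5 CPM in the pair labelled Trpv4-null. Nearly all of this was S100a8 and S100a9. The 6 dendritic cell markers summed to 351 and 189 CPM in wild type and 370 and 205 CPM in the other pair, mostly Irf8. Fibroblast and mast cell markers summed to at most 4.59 and 0.114 CPM. The median share of mitochondrial UMIs was 6.06% and 6.13% in untreated cells and 3.05% and 3.19% after LPS. In the cells with at most 5% mitochondrial UMIs, 11 members were higher by at least 1.5-fold in wild type and 8 were lower, beside 11 and 7 in the pair labelled Trpv4-null. The shares over all compared genes in these cells were 9.86% and 35.6% in wild type and 10.5% and 38.8% in the other pair. Folding genes made up 7 and 6 of the higher members, against 9 and 8 in all cells. Atf4 was short of 1.5-fold there in wild type. Only 1737 of the 7028 untreated wild-type cells were in this set. The part of these marker levels in the results was not tested.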

How the data were processed

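The deposited table holds whole-number UMI counts, not normalized, with a deposited annotation of each cell's library, cluster and fraction of mitochondrial UMIs (a fraction from 0 to 1, per the file headers). Per the submitters' processing notes, the authors used Cell Ranger 3.1.0, Seurat 4, R 4.2 and mm10, with no role given. Cell filters, doublet handling and strand use were not stated there. In each of the 27366 cells the counts matched the annotated total.

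Counts were summed per library and scaled to CPM. Ratios are log2 of CPM plus 1 CPM, with exact conditional 95% intervals; levels carry exact Poisson intervals. Both cover counting error only, and UMIs of 1 library are no replicates. A fold of 1.5 is a size, not a test. All 32 members were named, with the first 10 other ER genes and first 9 other stress genes of the lists, and the 8 genes closest to each summed profile. Background shares used the 7617 genes with a mean of at least 10 CPM over the 4 libraries. Members and lists were chosen with earlier results of these data known. The ratio step was tested on simulated data. Promoters came from the RefSeq table (GRCm38.p6), and their direction was checked against GENCODE M21 transcripts, which held 24 of the 29. Alternatives were other scalings (median of ratios, TMM, a total without genes over 1% of UMIs), pseudocount, cells and fold. Tools were scipy 1.17.1, numpy 2.4.6 and pandas 2.3.3 under Python 3.11.15, edgeR 4.0.16 under R 4.3.3 for TMM factors, and matplotlib 3.10.9. Protein sequences were not used here.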

Additional observations from a re-analysis of the deposited data

Results flagged for a closer look

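Atf3, a stress-induced transcription factor that is also an immediate-early gene, was the one gene, among the 32 members and the named genes of the other lists, with a CPM ratio clear of 1 in opposite directions after LPS in the 2 genotypes. Its level was 107.6 CPM in untreated wild type and 77.2 CPM after LPS, a log2 ratio of -0.47. In the pair labelled Trpv4-null it was 75.1 and 92.2 CPM, a log2 ratio of 0.29. The log2 ratios were 0.766 apart. After median-of-ratios scaling they were 0.05 and 0.90, so the directions were not opposite on that scale. With 1 library per group the difference between them was not tested. The untreated wild-type library was highest, as it was for the sum of the 9 handling markers, to which Atf3 belongs (1869, 895, 1083 and 1042 CPM in the order wild type untreated and LPS, labelled Trpv4-null untreated and LPS). The part of handling in this value was not tested.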

How the results depend on the processing

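With no replicate libraries, no replicate could be left out. No paired analysis was possible because each group was 1 library and the labels give no shared number. Of the counts of members past 1.5-fold, 72 of 80 values under the alternatives stayed within 1.5 times of the main one. These include the counts between the genotype labels, which were 0 in the main values and could only be 0 at a fold of 2. The 8 that moved are given below, and all but that with clusters weighted equally were LPS counts. At a fold of 2, 4 members were higher and 4 lower after LPS in wild type (5.96% and 16.8% of all compared genes), and 6 higher in the pair labelled Trpv4-null (6.33%). After median-of-ratios or TMM scaling, 3 members were at least 1.5-fold lower in wild type (8 in the main values) and 4 for the Trpv4-null label (7 in the main values). With clusters weighted equally, 1 member was lower in the untreated library labelled Trpv4-null (Ppp1r15a), in place of 0. Counting error limits genes with few UMIs: Chac1 had 3 and 4 UMIs without LPS. The lack of replicate libraries leaves culture, mouse and library preparation impossible to tell apart from treatment and genotype.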

Other observations

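Ddit4, an inhibitor of mTORC1 and a stress target like Sesn2, was at 1.81 CPM (79 UMIs) in untreated wild type and 5.21 CPM (245 UMIs) in the untreated library labelled Trpv4-null, and at 0.840 and 0.550 CPM after LPS. The 43 other ER genes and 33 other stress response genes otherwise held 1 gene at least 1.5-fold apart between the untreated libraries, the cystine importer Slc7a11, whose log2 ratio of the library labelled Trpv4-null to wild type was -0.60, and none after LPS.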
